A study of Danio rerio with 12 samples.

Results

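Zebrafish embryos that lacked anp32e from both parents were compared with embryos whose mother alone was null, so that the 2 groups differ in the father. Both groups were collected at the shield stage, 6 h after fertilization, when gastrulation has begun. The comparison rests on 4 of the 12 libraries of the series: 2 of null embryos (strain NHGRI per the labels) and 2 of maternal null embryos (strain Tu X NHGRI). Of 22737 genes in the count table, 21167 could be tested with 1 sample per group. The other shield groups, used here for reference, were 2 libraries of wild type (strain Tu) and 2 of paternal null (strain Tu X NHGRI), in which the label names the father alone as null. The mothers of null and of maternal null embryos were thus null alike, and the father was null in the first group and not in the second. The father's strain changed together with his genotype, and the contributions of genotype and strain cannot be told apart. The labels do not say how the mutant line was made, how many embryos were pooled or whether the embryos came from more than 1 clutch.

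The protein Anp32e is a chaperone that takes the histone variant H2A.Z out of nucleosomes, and the series is about nucleosomes that keep DNA methylation away from regulatory regions between germline and embryo. A fish embryo starts with RNA laid down in the egg, and transcription from its own genome begins before the shield stage. Transcripts at the shield stage are therefore a mixture of what the mother supplied and what the embryo made from both parental genomes. The outermost cells at this stage form the enveloping layer, an epithelium rich in keratins, and the deep cells are being divided into ectoderm, mesoderm and endoderm.

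The 4 libraries compared held 18.5 to 25.7 M counts, and the other shield libraries 13.5 to 25.1 M. The chi-square between libraries of a pair, divided by its degrees of freedom, would be near 1 for counting noise alone. It was 1.05 for the null pair, 1.16 for maternal null and 1.17 for paternal null, against 95.2 for wild type. Each pair other than wild type was therefore counted as 1 sample, and the test then takes its spread from the wild-type libraries alone and assumes that the lone samples vary as those do. A gene is said to have risen or fallen only where it passed an adjusted p of 0.05 in the same direction both in that fit and in a fit with every library as a replicate. The second fit treats near-identical libraries as independent, so its p-values are too small. Nothing in the labels tells whether replicates were separate clutches. With 1 sample per group, differences of clutch or preparation cannot be told apart from those of the father. Levels are given as CPM, for which each library was scaled to the same total, and replicate 1 comes first. Mitochondrial genes with an mt- symbol held 1.54% and 1.52% of counts in null and 1.09% and 1.12% in maternal null. A gene of the mitochondrial chromosome without a symbol here (ENSDARG00000082753, from 1019 to 1971) stood at 1037 and 1070 CPM in null. It stood at 12287 and 12327 CPM in maternal null, 10697 and 10738 CPM in paternal null and 1603 and 8060 CPM in wild type. The libraries had been depleted of ribosomal RNA, and the part of library preparation in this gap was not tested.

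The targeted gene came first, as the check on the labels. The transcript of anp32e (ENSDARG00000054804, chromosome 19 from 42758985 to 42772378, Zv10) stood at 81.2 and 80.5 CPM in null embryos and at 1212 and 1226 CPM in maternal null embryos. Paternal null embryos held 1420 and 1413 CPM and wild type 2285 and 3172 CPM. Null libraries were below all others, both crosses lay in between, and no groups overlapped. The fall was 15.1-fold, or -3.91 ± 0.96 on the log2 scale (SE; 1 sample per group; edgeR, adjusted p = 0.0082), and the adjusted p with every library was 0.00088. Of 141 genes tested within 5 Mb of anp32e, it was the only one past the threshold.

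Few genes were called between null and maternal null embryos with 1 sample per pair, in a fit that seldom calls smaller folds. With 1 sample per pair, edgeR called 228 of 21167 genes (1.08%), 58 higher (0.274%) and 170 lower (0.803%) in null. With every library it called 6129 of 19166 (32%), 2772 higher (14.5%) and 3357 lower (17.5%). These 2 shares are the background for the counts with every library given for each list. Both fits shared 224 genes (1.06%): 58 rose (0.274%) and 166 fell (0.784%). DESeq2 on 1 sample per pair called 6 genes higher (0.0336% of 17840) and 64 lower (0.359%), which covered 6 of the 58 genes that rose and 62 of the 166 that fell. Of the genes named here by rule, it called 3 of the 23 that rose (fezf2, kctd15 and fn1) and 29 of the 46 that fell. At an unadjusted p under 0.05, 735 genes were higher (3.47%) and 1184 lower (5.59%) in edgeR with 1 sample per pair, the background for the counts of this kind given for each list. By the sign of the difference alone, 49.5% of all genes were higher and 50.5% lower. By level alone, 297 of 16116 genes with at least 1 CPM in the higher group stood at least 4-fold higher in null (1.84%) and 440 at least 4-fold lower (2.73%). In simulated data the fit with 1 sample per pair recovered 0% of 2-fold, 12% of 4-fold, 48% of 8-fold and 80% of 16-fold changes, so a gene that did not pass is not shown to be unchanged.

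**Figure D1:**
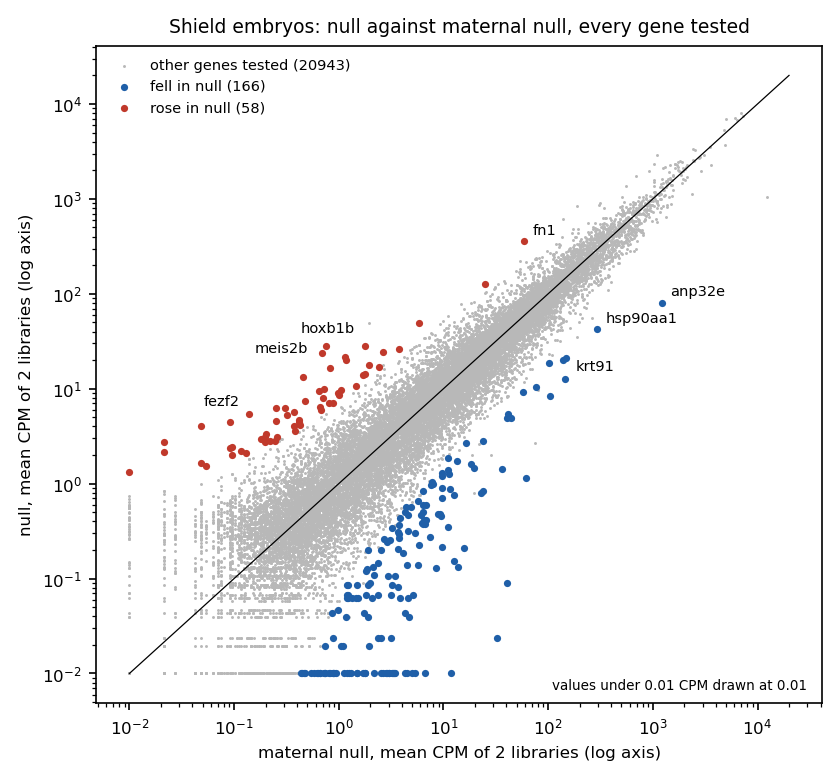
Level of each gene in maternal null (x axis) and null (y axis) shield embryos, mean CPM of 2 near-identical libraries, both on log axes, with equality drawn as a line. The 58 genes that rose and the 166 that fell lie at the edges of the cloud, with anp32e, hsp90aa1 and krt91 the labelled genes that fell and fn1, hoxb1b, meis2b and fezf2 those that rose.

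The genes that rose included transcription factors of the neural plate, its border and the posterior axis. The hindbrain gene hoxb1b (ENSDARG00000054033, chromosome 12 from 27049779 to 27051474) stood at 28.7 and 28.2 CPM in null against 0.865 and 0.636 CPM in maternal null. Its level was 1.04 and 1.04 CPM in paternal null and 0.239 and 3.11 CPM in wild type, so that null stood apart from all others and the wild-type libraries differed widely. The rise was 38.6-fold (log2 5.27 ± 0.90 SE; edgeR, adjusted p = 5.9e-06; 0.0062 with every library), and it did not pass in DESeq2 (adjusted p = 0.72). The Hox cofactor gene meis2b rose 34.5-fold, from 0.649 and 0.721 CPM in maternal null to 23.9 and 23.7 CPM in null (adjusted p = 1.3e-05 in edgeR, 0.79 in DESeq2). It stood at 0.709 and 0.417 CPM in paternal null and at 0.159 and 2.37 CPM in wild type. Its relative meis1 rose 9.34-fold, to 25.4 and 23.3 CPM (adjusted p = 0.19 in DESeq2). The posterior gene hoxb8 had no count in maternal null and stood at 1.67 and 0.99 CPM in null, at least 19.1-fold higher against a floor of 3 counts over the group.

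Of the 20 hox genes tested, hoxb1b and hoxb8 rose and none fell. With every library 7 of 13 were higher and none lower in edgeR, and 6 members were higher and 1 lower at an unadjusted p under 0.05 with 1 sample per pair, beside 3.47% and 5.59% of all genes. The median log2 difference was 0.59, beside -0.01 over all genes. Most of these genes were scarce in all groups: hoxb5, for example, stood at 0.467 and 0.802 CPM in null and at 0 in both maternal null libraries.

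Of 53 neural and later patterning genes tested, 4 rose and none fell. The forebrain gene fezf2 rose 37.4-fold, from 0.108 and 0.17 to 4.94 and 5.8 CPM (log2 5.19 ± 1.05 SE; edgeR, adjusted p = 0.00028), with 0.425 and 0.209 CPM in paternal null and 0.159 and 0.296 CPM in wild type. The eye and forebrain gene pax6 rose 9.27-fold, from 1.08 and 1.02 to 10 and 9.34 CPM. Its level was 0.614 and 0.376 CPM in paternal null and 1.99 and 2.14 CPM in wild type. The dorsal neural gene zic1 rose 11-fold, from 0.703 and 0.721 to 7.43 and 8.39 CPM, and a foxb1 copy (ENSDARG00000053650) 10.5-fold, from 0.324 and 0.509 to 4.67 and 4.29 CPM. In all 4 genes both null libraries were above every other shield library. In DESeq2 fezf2 passed (adjusted p = 0.031), while pax6, zic1 and the foxb1 copy had adjusted p-values of 0.09, 0.18 and 0.34. With every library 20 of 45 members were higher and 3 lower, and the list median was 1.17. By level, null was above every other shield group or library at 33 of the 53 members, against 27.2% of all genes tested. Genes that did not pass with 1 sample per pair included otx1, at 66.1 and 71.3 against 15.5 and 15.6 CPM, and the ventral midline signal gene shh, at 3.89 and 3.96 against 0.487 and 1.1 CPM. The preplacodal gene dlx3 stood at 48.5 and 49.7 CPM in null and 2.11 and 1.78 CPM in maternal null, a 25.5-fold difference that did not pass (adjusted p = 0.62). Its wild-type libraries held 0.358 and 8.5 CPM.

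The other genes that rose included single genes known from mesoderm, neural crest and signalling. The presomitic mesoderm gene tbx6 rose 15.9-fold, from 0.216 and 0.424 to 5.84 and 4.62 CPM, and was the only member past both thresholds among 45 mesoderm and T-box genes. The muscle determination gene myod1 stood at 2.33 and 2.26 against 0.27 and 0.17 CPM, with an adjusted p of 0.062 in edgeR. The homeobox gene lbx2 rose 26.5-fold, and the bHLH gene twist1a, known from mesenchyme and neural crest, 20.4-fold, from 0.27 and 0.339 to 6.19 and 6.46 CPM. The gene kctd15, an inhibitor of neural crest formation, rose 19.2-fold, from 1.19 and 1.1 to 22.3 and 21.4 CPM, with 0.945 and 1.17 CPM in paternal null and 1.79 and 2.66 CPM in wild type. The Wnt ligand gene wnt8b rose 35.9-fold (95% exact counting interval 9.93 to 296) from 2 maternal null counts and was the only one of 37 Wnt genes to do so. Both wnt8a copies were higher without passing, the first at 275 and 286 against 98.1 and 98.2 CPM. With every library 14 of 33 Wnt genes were higher and 5 lower (list median 0.45). Of mesoderm and T-box genes 14 of 41 were higher and 5 lower (median 0.34), beside 14.5% higher and 17.5% lower of all genes. In DESeq2 kctd15 passed (adjusted p = 0.0004), and tbx6, lbx2, twist1a and wnt8b had adjusted p-values of 0.11, 0.11, 0.37 and 0.71.

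The fibronectin gene fn1 (ENSDARG00000019815), whose product lies between germ layers in gastrulation, had the largest CPM difference among the genes that rose. Its level was 361 and 357 CPM in null, 60.5 and 57.3 CPM in maternal null, 64 and 67.3 CPM in paternal null and 101 and 131 CPM in wild type. The rise was 6.12-fold (log2 2.62 ± 0.71 SE; edgeR, adjusted p = 0.029; 0.021 in DESeq2). The collagen lysyl hydroxylase gene plod2 rose 14.7-fold, from 0.324 and 0.636 to 7.12 and 7.59 CPM. The laminin genes lama1, lamb1 and lamc1 stood 1.86-, 2.13- and 1.79-fold higher without passing. Other genes named by size were a2ml, of the alpha-2-macroglobulin family of protease inhibitors (16.2-fold), cd34 (17.4-fold), the Hes-family repressor gene hes4 (8.44-fold, to 46.9 and 51.5 CPM), gna14, a G protein subunit gene (6.92-fold), the GABA receptor subunit gene gabrp (15.8-fold) and fabp2, a gene of gut lipid binding (14.4-fold). None of these 6 nor plod2 passed in DESeq2, with adjusted p-values from 0.051 for gna14 to 1 for cd34.

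Across the 58 genes that rose, null was above every other shield group or library at all 58, and paternal null lay nearer to maternal null at 54. Over all genes tested, null was above every other shield group or library at 27.2%. The 58 genes were picked by null minus maternal null, so that null stood highest follows in part from that choice. Over those 54, the median level was 6.14 CPM in null and 0.428 CPM in maternal null, with 0.598 CPM in paternal null. In wild type the median was 0.358 CPM in replicate 1 and 1.22 CPM in replicate 2. Wild-type replicate 2 was at least 2-fold above replicate 1 at 35 of the 58, against 545 of the 16116 genes with at least 1 CPM in either group, and the part of this difference in the result was not tested. For hoxb1b, meis2b, meis1, lbx2, twist1a and cd34 the gap between the wild-type libraries was more than 5-fold. For pax6, fezf2, foxb1, tbx6, kctd15 and fn1 it was less than 2-fold.

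**Figure D2:**
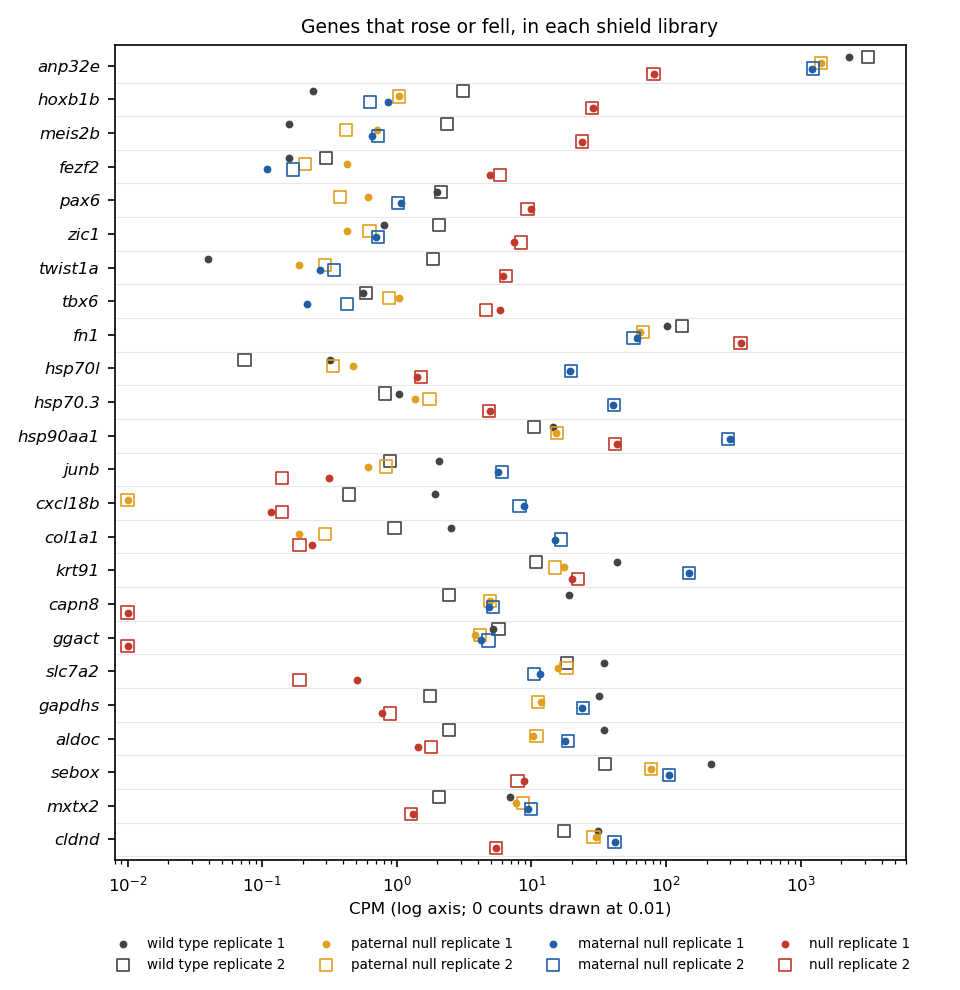
CPM of 24 genes that rose or fell, in each of the 8 shield libraries, on a log axis; filled circles are replicate 1 and open squares replicate 2. The upper genes from hoxb1b to fn1 are highest in null, those from hsp70l to krt91 are highest in maternal null, and those from capn8 to cldnd are lowest in null. Null libraries of anp32e stand at 81.2 and 80.5 CPM, below all others.

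The 166 genes that fell divided by where paternal null stood. At 58 paternal null lay nearer to null. Their median level was 3.77 CPM in maternal null, 0.0853 CPM in null, 0.166 CPM in paternal null and 1.21 and 0.222 CPM in the wild-type libraries, so maternal null was the high group. It exceeded both wild-type libraries at 52 of the 58. At the other 108 genes paternal null lay nearer to maternal null. There the medians were 3.35 CPM in maternal null and 3.61 CPM in paternal null, 0.107 CPM in null and 5.43 and 3.62 CPM in wild type, so null was the low group. Null was below every other shield group or library at 107 of the 108, though wild-type replicate 2 lay nearer to null than to maternal null at 12. The median share of the wild-type level was 57.8% in maternal null and 56.7% in paternal null over these 108. Wild-type replicate 1 was at least 2-fold above replicate 2 at 84 of the 166. The same held at 2785 of the 16116 genes with at least 1 CPM in null or maternal null. The part of this difference in the result was not tested. Over all genes tested, null was below every other shield group or library at 28.2%. These classes were drawn after the values were seen, by the levels of null, maternal null and paternal null, and are descriptions. Which group stood highest or lowest in each class follows in part from how the classes were drawn.

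**Figure D3:**
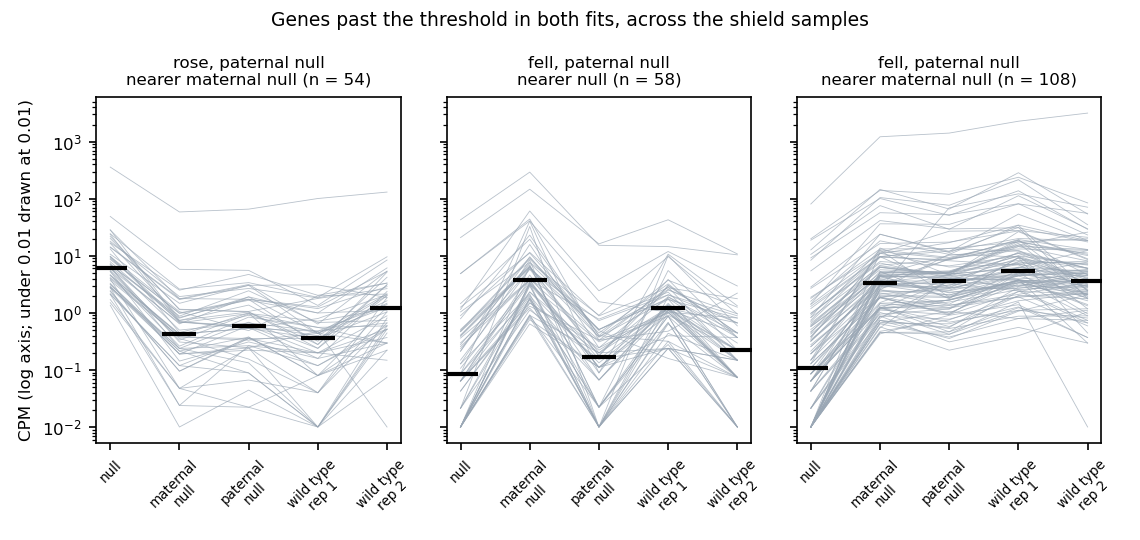
CPM (log axis) of genes past both thresholds in null, maternal null and paternal null (pairs summed) and in each wild-type library, 1 line per gene, with black bars at the medians. The 4 genes that rose with paternal null nearer to null are not drawn. The 54 genes on the left have their highest median in null, the 58 in the middle have their highest median in maternal null and the next in wild-type replicate 1, and the 108 on the right have their lowest median in null, with wild-type replicate 2 nearer to null at 12 of them.

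The genes high in maternal null included inducible heat shock genes. Of 39 chaperone genes tested, 7 fell in null and none rose. With every library 13 were lower and 3 higher, and 8 were lower and 1 higher at an unadjusted p under 0.05 with 1 sample per pair. The list median was -0.18. Among abundant constitutive members, a second hspa8 copy (ENSDARG00000068992) and hsp90ab1 stood 1.18- and 1.07-fold higher in null. The abundant member hspb1 stood 1.29-fold higher, at 2112 and 2131 CPM in null and 1644 and 1640 CPM in maternal null. The summed level of the list was 15039 and 15034 CPM in null and 13937 and 14005 CPM in maternal null. It was 11859 and 11901 CPM in paternal null and 11181 and 14335 CPM in wild type. The inducible gene hsp70l (ENSDARG00000055723, chromosome 8 from 4741890 to 4744644) was at 1.4 and 1.51 CPM in null, 19.4 and 19.6 CPM in maternal null, 0.472 and 0.334 CPM in paternal null and 0.318 and 0.0739 CPM in wild type. Maternal null was highest and null second, and no groups overlapped. The fall was 13.5-fold (log2 -3.74 ± 0.84 SE; edgeR, adjusted p = 0.0019; 0.011 in DESeq2).

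The inducible HSP90 gene hsp90aa1 (ENSDARG00000024746) fell 6.85-fold, from 298 and 290 CPM in maternal null to 43.5 and 42 CPM in null, with 15.1 and 15.5 CPM in paternal null and 14.5 and 10.4 CPM in wild type. On chromosome 3 between 25981913 and 25996220 lie 3 HSP70 genes that also fell, hsp70.1 by 12.6-fold, hspa2 by 8.92-fold and hsp70.3 by 8.37-fold. Their sequences are alike, and how reads were shared among them is uncertain. Null embryos stood above paternal null and wild type for all of these 5 genes. An hspa8 copy (ENSDARG00000037403) fell 9.04-fold, from 42.8 and 45.1 to 4.55 and 5.28 CPM. In DESeq2 hsp70l, hsp90aa1, hsp70.3 and ahsa1 passed, and hsp70.1, hspa2 and this hspa8 copy did not (adjusted p = 0.29, 0.17 and 0.12). The HSP90 cochaperone gene ahsa1 (ENSDARG00000028664) followed another order: it was at 0.311 and 0.33 CPM in null, 4.27 and 4.84 CPM in maternal null, 5.76 and 4.26 CPM in paternal null and 3.94 and 4.58 CPM in wild type, so null was the low group.

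Immediate early genes and genes of inflammation also fell. Of 27 AP-1 and immediate early genes, 5 fell and none rose. The AP-1 subunit genes junb (ENSDARG00000074378), fosb and fosl1 fell 25-, 23.7- and 18.9-fold. The zinc finger gene egr3 fell 36.4-fold and egr1 19-fold (95% exact counting intervals 12.5 to 177 and 6.49 to 91.9), each from 3 null counts. For junb the values were 0.311 and 0.141 CPM in null, 5.62 and 6.07 CPM in maternal null, 0.614 and 0.835 CPM in paternal null and 2.07 and 0.887 CPM in wild type. For the scarce egr1, wild type held 1.47 and 0.148 CPM and maternal null 1.08 and 1.31 CPM, so wild-type replicate 1 stood above maternal null. With every library 13 of 26 were lower and 3 higher, and 11 were lower and 0 higher at an unadjusted p under 0.05 with 1 sample per pair. DESeq2 on 1 sample per pair called 1 lower, junb, and 0 higher, with adjusted p-values of 0.089 for fosl1, 0.34 for fosb, 0.35 for egr3 and 0.72 for egr1, and the list median was -0.56.

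Of 49 interferon and immune genes, 4 fell and none rose. The neutrophil chemokine gene cxcl8a had no count in null and stood at 6.92 and 6.53 CPM in maternal null, at least 105-fold lower in null. It stood at 0.0472 and 0 CPM in paternal null and at 1.11 and 0.0739 CPM in wild type. The chemokine gene cxcl18b fell 65.8-fold, from 8.76 and 8.14 to 0.117 and 0.141 CPM. The class II histocompatibility gene mhc2dab also had no count in null, at least 52-fold lower, and cd74a, which encodes the chain that escorts class II molecules, fell 72.1-fold (95% exact counting interval 24.7 to 350). The neighbouring mhc2daa fell at least 53.1-fold. With every library 13 of 44 list members were lower and 6 higher, beside 17.5% lower and 14.5% higher of all genes. At an unadjusted p under 0.05 there were 10 lower and 1 higher with 1 sample per pair, and the list median was -0.32.

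Some genes of connective tissue and of surface epithelium were further members of the class high in maternal null, although the enveloping layer list, the surface epithelium at this stage, stood higher in null at 27 of 38 members by level. The type I collagen gene col1a1 (ENSDARG00000035809) fell 74.1-fold, from 14.9 and 16.5 CPM in maternal null to 0.233 and 0.189 CPM in null. It was at 0.189 and 0.292 CPM in paternal null and 2.51 and 0.961 CPM in wild type. Of 38 collagen and matrix genes tested, fn1 and plod2 rose and col1a1 and col1a1a fell, and with every library 9 were higher and 11 lower (list median 0.00). The fall of col1a1a was 12.8-fold and a col10a1 copy (ENSDARG00000101535), a gene of cartilage and bone matrix, fell 45.2-fold. The keratin gene krt91 fell 7.03-fold, from 147 and 147 to 20 and 22 CPM, the claudin gene cldni 12.9-fold and the mucin gene muc5.2 12.6-fold. The sterol synthesis gene msmo1 fell 38.9-fold. In DESeq2 krt91, cldni, muc5.2 and msmo1 did not pass (adjusted p = 0.098, 0.27, 0.46 and 0.065). Among clone-named genes, si:dkey-238c7.13 fell 1535-fold (95% exact counting interval 276 to 60640) to 1 null count (adjusted p = 0.17 in DESeq2), si:dkey-7c18.24 fell 474-fold and si:dkey-193p11.2 29.2-fold. Also in this class, and named after their values were seen, were the bile acid synthesis genes cyp7a1 and cyp8b1, the matrix protease gene mmp13a, the integrin gene itgb4 and the keratin gene krt15. For itgb4, wild-type replicate 1, at 9.71 CPM, stood above maternal null, at 7.89 and 7.51 CPM.

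Markers of other cell types were set beside these genes, from lists chosen after the values were seen. With every library 7 of 18 leucocyte genes were lower in null and 3 higher. Of bone and connective tissue genes 7 of 17 were lower and 1 higher, and of muscle and blood genes 2 of 14 were lower and 3 higher. By level, 5 leucocyte genes and 5 bone and connective tissue genes stood at least 4-fold lower, and 1 of each list at least 4-fold higher. Among 31 leucocyte genes matched, the defining markers lyz and ptprc were at 0.212 CPM or below in every null and maternal null library, and laptm5 at 0.127 CPM or below. The summed level of that list was 102 and 101 CPM in null, 73.5 and 74.8 CPM in maternal null, 161 and 160 CPM in paternal null and 85.8 and 37.1 CPM in wild type. Of the 22 tested, the 3 that fell were cd74a, mhc2daa and mhc2dab, and none rose. The 23 bone and connective tissue genes matched summed to 53.8 and 53.3 CPM in null, 114 and 118 CPM in maternal null, 71.3 and 71.3 CPM in paternal null and 101 and 70.8 CPM in wild type, and 4 of 20 tested fell. The 20 muscle and blood genes summed to between 9.83 and 16.5 CPM in each shield library, and none of the 17 tested passed with 1 sample per pair in edgeR or DESeq2 (3 higher and 1 lower at an unadjusted p under 0.05). Wild-type replicate 1 was above replicate 2 at 57 of the 58 genes high in maternal null, against 10307 of the 16116 genes with at least 1 CPM in either group. The part of other cell types, of handling or of a single clutch in the high values of maternal null was not tested. In bulk RNA, a change in the number of cells of a type and a change in RNA per cell cannot be told apart.

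Among the 108 genes at which paternal null lay nearer to maternal null, 30 had no null count. The calpain gene capn8 stood at 4.87 and 5.17 CPM in maternal null, 4.91 and 4.93 CPM in paternal null and 18.9 and 2.44 CPM in wild type, and was at least 78.8-fold lower in null. A ggact copy (ENSDARG00000070579), which encodes a gamma-glutamylamine cyclotransferase, had no null count against 4.22 and 4.79 CPM in maternal null, 3.83 and 4.13 CPM in paternal null and 5.21 and 5.69 CPM in wild type, at least 71-fold lower. The other ggact copy (ENSDARG00000038248) overlaps it on chromosome 1 and fell 79.9-fold (95% exact counting interval 27.3 to 387). Reads of overlapping genes may have been shared between them. The clone-named si:dkey-121n8.8 and si:ch211-202h14.1 were also without a null count, at least 68.4- and 53.9-fold lower, and zgc:195170 fell 107-fold. The cell adhesion gene cntnap2 fell 84.1-fold, from 12.8 and 12.4 CPM in maternal null to 0.117 and 0.189 CPM in null. It stood at 1.65 and 2.09 CPM in paternal null and 3.74 and 3.03 CPM in wild type. Maternal null was thus the highest group for cntnap2, as null was the lowest. The cationic amino acid transporter gene slc7a2 fell 30-fold, from 11.5 and 10.4 CPM to 0.506 and 0.189 CPM, with 15.7 and 18.2 CPM in paternal null and 34.6 and 18.3 CPM in wild type.

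Genes of early mesendoderm and of glycolysis were also in this class. The mix-type homeobox gene sebox fell 12.6-fold, from 105 and 105 CPM in maternal null to 8.75 and 7.88 CPM in null (log2 -3.65 ± 0.72 SE; edgeR, adjusted p = 0.00018). It stood at 77.1 and 76.8 CPM in paternal null and 216 and 35.1 CPM in wild type. Its relative mxtx2, which acts in the yolk syncytial layer, fell 7.44-fold, from 9.35 and 9.93 to 1.32 and 1.27 CPM (adjusted p = 0.18 in DESeq2; 0.019 for sebox). These were the only 2 of 28 Nodal and mesendoderm genes past both thresholds, and with every library 10 were lower and 3 higher (list median -0.41). The Nodal ligand gene ndr1 stood at 2.1 and 1.89 against 10.3 and 9.42 CPM and the homeobox gene mixl1 at 50.4 and 51.4 against 195 and 198 CPM, without passing. The endoderm gene sox17 went the other way, at 47.7 and 45 against 12.9 and 12.6 CPM, also without passing. Other genes of this class with large CPM differences were inka1a (11.6-fold), the transcriptional coregulator gene cited2 (7.17-fold, not passing in DESeq2) and morc3b (7.04-fold), which all fell. In wild type inka1a stood at 286 and 54 CPM, cited2 at 113 and 29.8 CPM and morc3b at 238 and 84.7 CPM. The clone-named si:dkey-238c7.12 fell 53-fold but belongs to the class high in maternal null. It was at 1.17 and 1.13 CPM in null and 62 and 60.2 CPM in maternal null. Paternal null held 2.5 and 2.38 CPM and wild type 11.9 and 2.96 CPM.

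Of 43 glycolysis and hypoxia genes, gapdhs and aldoc fell and none rose. For gapdhs, a glyceraldehyde-3-phosphate dehydrogenase gene, the level was 0.778 and 0.896 CPM in null, 23.6 and 24.2 CPM in maternal null, 11.7 and 11.2 CPM in paternal null and 31.6 and 1.77 CPM in wild type (28.8-fold; adjusted p = 0.00099 in edgeR). The aldolase gene aldoc (ENSDARG00000019702) fell 11.4-fold, with 34.3 and 2.44 CPM in wild type. The wild-type libraries thus spanned most of the range between the groups for both genes. With every library 16 of 38 members were lower and 1 higher, 7 were lower and 0 higher at an unadjusted p under 0.05 with 1 sample per pair, DESeq2 called 0 (adjusted p = 0.82 for gapdhs and 1 for aldoc), and the list median was -0.71.

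**Figure D4:**
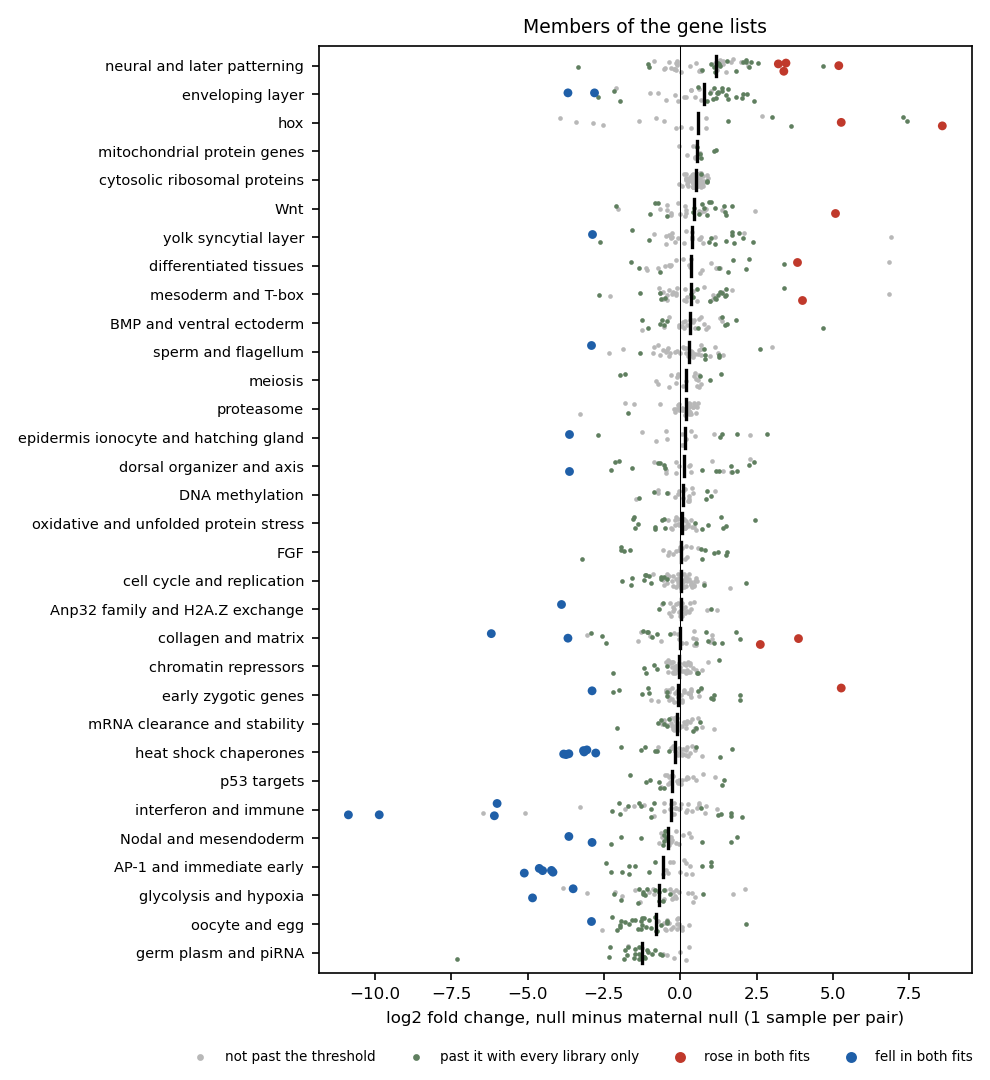
Log2 fold change, null minus maternal null with 1 sample per pair, of each tested member of 32 gene lists, ordered by list median (black bars; all genes have a median of -0.01). Large points rose or fell in both fits, and small green points passed only with every library as a replicate. Germ plasm and oocyte genes lie lowest as lists, neural patterning and enveloping layer genes highest.

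Most germline and egg transcripts stood lower in null, at 30 of 32 germ plasm and piRNA genes and 40 of 44 oocyte and egg genes by level, beside 50.5% of all genes. No germ plasm or piRNA gene passed with 1 sample per pair in edgeR or DESeq2, while 11 were lower and 0 higher at an unadjusted p under 0.05, beside 5.59% lower and 3.47% higher of all genes. With every library 24 were lower and 0 higher, and the list median was -1.26. By level, null was below every other shield group or library at 27 of 32 members, against 28.2% of all genes tested. The piRNA pathway gene piwil1 stood at 13.3 and 11.5 CPM in null, 42.2 and 44.7 CPM in maternal null, 56.9 and 58.9 CPM in paternal null and 64 and 54.5 CPM in wild type. The germ cell helicase gene ddx4 stood at 56.5 and 57.3 CPM in null, 130 and 129 CPM in maternal null, 140 and 143 CPM in paternal null and 129 and 97.3 CPM in wild type. The Tudor domain genes rnf17 and tdrd5 stood 5- and 4.93-fold lower, and dnd1 and nanos3, which protect primordial germ cells, 1.89- and 1.8-fold lower. The mother was null in both groups compared.

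Among 44 oocyte and egg genes, the claudin gene cldnd fell 7.63-fold, from 41.6 and 41.4 to 5.41 and 5.47 CPM, and no other passed both thresholds. With every library 25 of 43 were lower and 1, cdc25d, was higher, with a median of -0.79. Null was below every other shield group or library at 30 of the 44. The maternal TGF-beta ligand gene gdf3 stood at 64 and 66.1 CPM in null against 158 and 159 CPM in maternal null, the oocyte ligand genes gdf9 and bmp15 stood 3.23- and 4-fold lower and the deadenylation factor gene btg4 4.23-fold lower. Of 44 sperm and flagellum genes, cfap70, of the motile cilium, fell 7.6-fold, from 4.6 and 4.2 to 0.661 and 0.472 CPM (adjusted p = 0.14 in DESeq2), and none rose (1 higher and 1 lower at an unadjusted p under 0.05, and 0 called by DESeq2). No meiosis gene of 23 passed in edgeR with 1 sample per pair or in DESeq2, and 2 were lower at an unadjusted p under 0.05.

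Most genes of the enveloping layer stood higher in null, at 27 of 38 members by level. Of the 38, krt91 and cldni fell and none rose, but 19 of 37 were higher with every library, 5 were lower and the list median was 0.78. At an unadjusted p under 0.05, 7 were higher and 5 lower with 1 sample per pair. The keratin gene krt4 stood at 2863 and 2875 CPM in null and at 1098 and 1113 CPM in maternal null. In paternal null it was at 3527 and 3546 CPM and in wild type at 1319 and 629 CPM. For krt99 the values were 619 and 620, 136 and 139, 400 and 400, and 88.9 and 64.9 CPM in the same order of groups (adjusted p = 0.16 in edgeR for null minus maternal null). Both groups with a null father thus stood above both with a wild-type father. That order held at 21 of 38 members, against 9.77% of all genes tested, and the reverse order at 1 member, against 8% of all genes. The summed level of the list was 14218 and 14280 CPM in null, 6710 and 6738 CPM in maternal null, 17445 and 17472 CPM in paternal null and 7662 and 3762 CPM in wild type. The list medians were 0.78 for null minus maternal null and 1.57 for paternal null minus wild type, comparisons that share no library. In the latter, agr1, a gene of secretory epithelium, and krt99 had adjusted p-values of 0.032 and 0.03 in edgeR with 1 sample per pair. For null minus maternal null, agr1 stood at 76.3 and 79.8 against 13.7 and 15.6 CPM, with an adjusted p of 0.05 that did not pass.

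Yolk syncytial layer genes, many of which encode proteins of lipid transport, stood higher at 22 of 36 members by level, beside 49.5% of all genes. Of these 36, mxtx2 fell and none rose. With every library 10 of 33 were higher and 4 lower, 9 were higher and 3 lower at an unadjusted p under 0.05 with 1 sample per pair, and the list median was 0.39. The apolipoprotein gene apobb.1 stood at 58.1 and 59.5 against 9.79 and 12.5 CPM (adjusted p = 0.06 in edgeR) and the transferrin gene tfa at 126 and 125 against 32.7 and 33 CPM. Both groups with a null father stood above the rest at 8 of the 36, beside 9.77% of all genes tested.

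The BMP, FGF and organizer lists showed few calls with 1 sample per pair. No gene of 34 BMP and ventral ectoderm genes or of 26 FGF genes passed in edgeR with 1 sample per pair or in DESeq2. At an unadjusted p under 0.05 the former had 4 higher and 0 lower and the latter 1 higher and 5 lower. With every library 6 of 34 BMP genes were higher and 6 lower, and 7 of 25 FGF genes were higher and 5 lower. Of organizer genes 8 of 28 were higher and 9 lower, beside 14.5% higher and 17.5% lower of all genes. By level, 4 organizer genes stood at least 4-fold lower in null and 1 at least 4-fold higher. The epidermal regulator genes tp63 and tfap2a stood at 17.8 and 17.6 against 4.33 and 5.51 CPM and at 240 and 235 against 83.9 and 81.5 CPM, and the ventral repressor gene vent at 78.2 and 80.8 against 188 and 193 CPM. The FGF ligand gene fgf8 stood at 124 and 124 against 43.5 and 45.1 CPM and fgf3 at 7.98 and 8.39 against 29.8 and 28.8 CPM. Of 30 organizer genes, sebox fell and none rose, and the axial gene foxa2 stood at 80.8 and 85.4 against 26 and 26.6 CPM.

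Among members of the lists of H2A.Z exchange, DNA methylation and chromatin repressors, anp32e was the only one past both thresholds. Genes of chromatin outside these lists were not counted here. Of 32 genes of the Anp32 family and H2A.Z exchange, anp32e fell and none rose, and with every library 1 was higher and 3 lower. The relatives anp32a and anp32b stood 1.12- and 1.01-fold higher, at 854 and 860 and at 1382 and 1397 CPM in null. The remodeller gene ino80 was the only member higher with every library, at 112 and 117 against 55.7 and 58 CPM. Among 23 DNA methylation genes none passed in edgeR with 1 sample per pair or in DESeq2, and 0 had an unadjusted p under 0.05, while 3 of 22 were higher and 3 lower with every library. The de novo methyltransferase genes dnmt3bb.2 and dnmt3ba stood 1.3- and 1.05-fold higher and uhrf1, whose product guides maintenance methylation, 1.12-fold lower. No gene of 45 chromatin repressors, 57 cell cycle genes, 79 cytosolic ribosomal protein genes, 30 p53 targets, 47 genes of mRNA clearance, 41 proteasome genes, 40 oxidative and unfolded protein stress genes or 13 mitochondrial protein genes passed in edgeR with 1 sample per pair or in DESeq2. At an unadjusted p under 0.05 these lists had, in that order, 1, 4, 0, 1, 1, 1, 6 and 0 members. With every library 6 of 13 mitochondrial protein genes were higher and 0 lower (list median 0.54), 2 of 56 cell cycle genes were higher and 12 lower, and 7 of 39 stress genes were higher and 9 lower. Of chromatin repressors 3 of 44 were higher and 6 lower, of p53 targets 2 of 30 and 6, and of clearance genes 3 of 46 and 6. Of ribosomal protein genes 3 of 79 were higher and 0 lower, and of proteasome genes 0 of 39 were higher and 1 lower. Ribosomal protein genes stood slightly higher at 78 of 79 members (median 0.50), and their summed level was 30161 and 30293 CPM in null, 21817 and 21622 CPM in maternal null, 24471 and 24242 CPM in paternal null and 15777 and 29476 CPM in wild type. The gap between the wild-type libraries was thus wider than that between null and maternal null.

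The remaining lists had few calls by number, beside 0.274% of all genes that rose and 0.784% that fell. With every library 7 of 23 differentiated tissue genes were higher and 3 lower (list median 0.34). Of epidermis, ionocyte and hatching gland genes 4 of 16 were higher and 2 lower (median 0.16). Of early zygotic genes 8 of 44 were higher and 8 lower (median -0.07), beside 14.5% higher and 17.5% lower of all genes. Of 29 differentiated tissue genes, fabp2 rose and none fell, and 1 of 18 genes of epidermis, ionocytes and hatching gland, muc5.2, fell and none rose. Among 44 early zygotic genes hoxb1b rose and mxtx2 fell. Other abundant members stood close together, such as pou5f3 at 1602 and 1601 against 1938 and 1932 CPM.

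The layout of the shield groups also gives the father's effect with a wild-type mother, as paternal null minus wild type, which shares no library with null minus maternal null. In that comparison edgeR called 39 genes higher (0.184%) and 11 lower (0.052%) with 1 sample per pair. The 58 genes that rose in null had a median log2 difference of 3.85 with a null mother and -0.07 with a wild-type mother, and 27 had the same sign in both. The 166 that fell had medians of -4.66 and -0.98, and 141 had the same sign. The sign depended on the wild-type library: against replicate 1 alone it was shared at 49 of 58 and 150 of 166, and against replicate 2 alone at 17 and 100. Over 13410 genes with at least 1 CPM the correlation of the effects was weak (Pearson 0.15, Spearman 0.03), and it was 0.33 against wild-type replicate 1 and -0.05 against replicate 2. These are correlations across genes within the same libraries, given as descriptions. The genes that rose or fell were picked by null minus maternal null, so their larger medians there follow in part from that choice.

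Whether the father's effect differed with the mother was tested as the difference of those differences. Null minus maternal null is a term of it, so genes picked by that comparison are favoured among its calls. By the labels, null and wild type were each of a single strain and both crosses were Tu X NHGRI. The contrast therefore also sets single-strain against cross embryos, and genotype and strain cannot be told apart in it. With 1 sample per pair edgeR called 67 genes (0.317%), 24 positive (0.113%) and 43 negative (0.203%), and 56 passed in both fits (0.265%). DESeq2 called 10, and edgeR with all 12 libraries in the fit called 0 (2144 of 22712 at an unadjusted p under 0.05). Of the genes that rose, 13 were among the 56, and of those that fell 40. For hoxb1b the father's effect was 5.27 on the log2 scale with a null mother and -0.65 with a wild-type mother, a difference of 5.92 (adjusted p = 0.00059 in edgeR). For pax6 it was 3.21 and -2.05, a difference of 5.26 (adjusted p = 0.0052). For hsp70l it was -3.74 and 0.92, a difference of -4.66 (adjusted p = 0.027). For slc7a2 it was -4.89 and -0.58, a difference of -4.32 (adjusted p = 0.0084). For anp32e it was -3.91 and -0.94, a difference of -2.97 that did not pass with 1 sample per pair (adjusted p = 0.56; 0.0062 with every library).

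**Figure D5:**
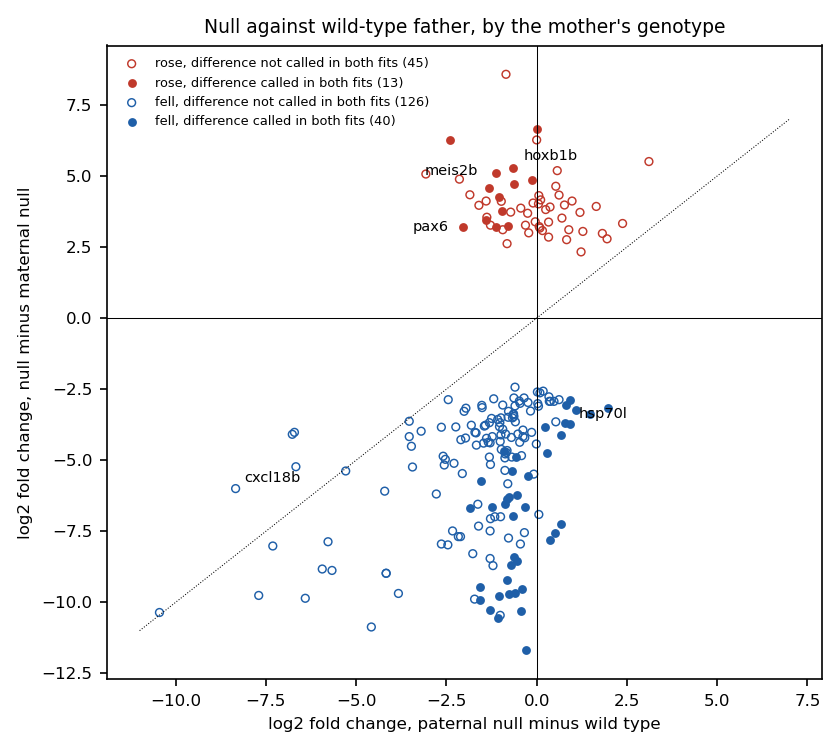
Log2 fold change between a null and a wild-type father for the 224 genes past both thresholds, with a wild-type mother (paternal null minus wild type, x axis) and with a null mother (null minus maternal null, y axis); the dotted line marks equal effects. Filled points are the 13 genes that rose and the 40 that fell whose difference between mothers passed in both fits. The genes that rose scatter around 0 on the x axis, with a median of -0.07. All genes drawn were picked by the comparison on the y axis, so large values there follow from the choice.

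Some of the genes lay close together in the genome, but how often equally many random genes would do so was not tested. Some of these groups of neighbours hold overlapping or same-named entries, such as the ggact copies. Of the 58 that rose, 16 were in 6 runs with gaps of at most 500 kb, and of the 166 that fell 35 were in 15 runs. On chromosome 15 between 21144093 and 21303684, 5 of 6 tested genes rose, among them a2ml and si:dkey-52d15.3, which overlap. On chromosome 2 between 3621410 and 3638836 all 4 tested genes fell; they include copies named cyp8b1, and 2 of them (ENSDARG00000059000 and ENSDARG00000097559) had identical counts in every library and cannot be told apart. Chromosome 4 held 21 of the genes that fell, 1.59% of 1318 tested there against 0.784% of all genes, and none that rose. This was the highest such share of the chromosomes, with chromosome 2 next at 1.43% (14 of 977). Chromosomes 16, 17, 18 and 22 also held none that rose.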

How the data were processed

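Total RNA of shield embryos was sequenced as stranded TruSeq libraries after Ribo-Zero Gold depletion of ribosomal RNA, per the labels. The authors deposited a single table of raw read counts per Ensembl gene with Zv10 coordinates. Novoalign 2.8 and DESeq2 are named in the submitters' processing notes. Not given in the sources used here: the counter, its strand setting and the annotation release. The lowest maximum count of a gene over the libraries was 10. Symbols were found for 20669 of 22737 identifiers (90.9%). The members and gene lists were chosen with earlier results of these data known.

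Counts were tested in edgeR 4.0.16 (R 4.3.3) after filterByExpr and TMM scaling, with robust quasi-likelihood F tests and Benjamini-Hochberg adjustment at 0.05. The first fit used 5 shield samples, each near-identical pair summed (1 residual degree of freedom, common biological coefficient of variation 0.344). The second used 8 libraries (4 residual degrees of freedom, 0.167). DESeq2 1.42.0 was an alternative. For a group without counts, 3 counts over the group served as the floor. For 1 to 3 counts a 95% exact Poisson interval is given. Both cover counting error only. Named genes were anp32e, in each direction the 12 largest folds at 5 CPM or more, the 6 highest genes without counts in 1 group and the 8 largest CPM differences, and per list up to 6 called and 3 abundant others. Other list members given with values were chosen after their values were seen. In simulated data 1 of 20434 unchanged genes was called (0.00489%). The simulation gave every gene and sample the common coefficient of variation of 0.344. Its rates therefore do not cover genes or lone samples that vary more, and do not measure false calls in the real libraries. The deviations of same-numbered null and maternal null libraries had a correlation of -0.0096 over 15812 genes.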

Additional observations from a re-analysis of the deposited data

Results flagged for a closer look

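The father's effect differed between embryos of null and of wild-type mothers, in both fits of edgeR (adjusted p under 0.05 in each), at 20 of the named genes. DESeq2 with 1 sample per pair passed 6 of the 20, both ggact copies, cntnap2, slc7a2, pax6 and kctd15, and edgeR with all 12 libraries in the fit called 0 genes, which ends each of these calls. There were 157 named genes, many of them picked by null minus maternal null, which is a term of this difference. Over all genes tested the share past both fits of edgeR was 0.265%. Genotype, strain and differences of clutch or preparation between the samples cannot be told apart in this contrast. Values are the father's effect with a null mother minus that with a wild-type mother, on the log2 scale. With a positive difference were meis2b (6.23), hoxb1b (5.92), lbx2 (5.35), kctd15 (5.30), pax6 (5.26), zic1 (4.85) and meis1 (4.02). With a negative difference were the ggact copies ENSDARG00000070579 (-9.88) and ENSDARG00000038248 (-5.70), si:dkey-121n8.8 (-8.96), si:ch211-202h14.1 (-8.35), cntnap2 (-5.55), hspa2 (-5.14), zgc:195170 (-4.86), hsp70l (-4.66), slc7a2 (-4.32), si:dkey-238c7.12 (-4.19), ahsa1 (-4.07), hsp70.3 (-3.86) and mxtx2 (-3.82). The values of genes without a null count depend on the prior count of the fit. No group had enough samples for a check of single outlying libraries.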

How the results depend on the processing

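With 1 sample per pair, all spread comes from the wild-type libraries, which differed more than any other pair, and the simulated recovery of 12% at 4-fold limits what could be called. The 228 genes called for null minus maternal null became 70 in DESeq2 (6 higher, 64 lower) and 54 with all 12 libraries in the fit, and 187 to 220 when any single null or maternal null library was left out. With every library the 6129 became 1443 to 1703 without any single null or maternal null library, 13524 and 13697 without wild-type replicate 1 or 2, and 13118 in a fit of the 4 libraries alone. Leaving out a null, maternal null or wild-type library thus gave 1443 to 13697; paternal null libraries were not left out. With a replicate block the count was 5339; with 1 sample per pair the numbers cannot pair libraries, since both libraries of a pair are near-identical. The 67 genes whose father's effect differed by mother became 10 in DESeq2 and 0 with all 12 libraries, and 46 to 61 with a library left out. The 50 genes of paternal null minus wild type became 5 in DESeq2. The other settings (DESeq2 size factors, no filter, at least 10 counts in 2 samples) kept these counts within 1.5 times. The anp32e change stayed between -3.92 and -3.90, with adjusted p-values from 6.5e-06 to 0.03. Of 677 alternative values for the 68 other named genes that passed, 622 kept their side of the threshold, 55 did not, 36 of them in DESeq2, and 0 reversed. The cause of these changes was not tested. The fit with every library is among the alternatives, and its 68 values passed because passing genes are defined by that fit. The fit with all 12 libraries is not among them. The settings without 1 library drop 1 of 2 near-identical libraries. The share that kept its side is thus set in part by the choice of settings.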
